A study of Mus musculus with 8 samples.

Results

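Interferon-stimulated genes are described here in single cells of pancreatic ductal adenocarcinoma from the KPC mouse, as a sum and gene by gene. The list of 39 symbols was taken as given, by symbol alone, and 38 of them had a single row in both count tables of 27775 gene rows. No row carried the symbol Mx2. KPC mice (among their alleles LSL-Trp53R172H/+ and Pdx-1-Cre) carry mutant alleles that a Cre under the Pdx-1 promoter switches on in cells of the pancreatic lineage, so the alleles are driven in epithelium and not in stroma. Both groups share this genotype, the sample labels used here name no treatment, and age is not given in the sources used here. A tumor of medium size gave 2812 cells with 20301669 UMIs (median 5456.5 per cell), and a tumor of large size gave 1533 cells with 2239012 UMIs (median 1037). The labels list 4 technical replicates per tumor, which are pooled in 1 table each. Each condition is therefore 1 sample, no p-value was computed, and intervals (95%, exact Poisson for a level, exact binomial for a ratio or a share) cover counting error only.

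Interferons are secreted proteins that cells release on sensing foreign or misplaced nucleic acid. Type I and type III interferons act through JAK kinases on a complex that holds Stat2 and Irf9 and binds the interferon-stimulated response element in the promoters of target genes. Interferon gamma, the type II interferon of T and NK cells, acts at another motif. The induced genes include sensors of nucleic acid, antiviral enzymes, GTPases that attack vacuoles of pathogens, and the ubiquitin-like protein Isg15 with its enzymes. In tumors these genes can be on in cancer cells, macrophages and stroma, and many have a basal level that does not need added interferon.

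In the medium-size tumor the members gave 6827 UMIs, 336 counts per 1000000 UMIs (CPM; 328 to 344), and every one of the 38 had at least 1 UMI. Bst2 alone made up 22.1% of this sum, and the leading 6 (Bst2, Ifi27l2a, Trim25, Ifi35, Eif2ak2 and Samd9l) made up 59.3%. In the large-size tumor there were 562 member UMIs, 251 CPM (231 to 273), and 5 members had none (Isg15, Ifit2, Ifi44, Oas1a and Gbp3). A count of 0 over all cells of that library allows up to 1.34 CPM. Trim25 led there with 124 UMIs, 22.1% of the sum.

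Cells were clustered without the members and without 122 further interferon pathway genes, and clusters were named from marker lists. In the medium-size tumor 8 clusters with 2331 cells were epithelial-like, 2 clusters with 239 cells macrophage-like, and 1 cluster each mesothelial-like (73 cells), fibroblast-like (67 cells) and endothelial-like (39 cells). One cluster of 63 cells had 10 epithelial and 9 macrophage markers and stayed unnamed. The lowest level of the members in the medium-size tumor was that of the epithelial-like cells, 252 CPM (245 to 260). Fibroblast-like cells were at 563 CPM (485 to 650), endothelial-like cells at 723 CPM (620 to 838) and macrophage-like cells at 846 CPM (787 to 907). The interval of endothelial-like cells overlapped those of both its neighbours in this order, and the unnamed cluster was at 488 CPM (414 to 571). Mesothelial-like cells stood above every other group at 2485 CPM (2330 to 2647), 9.85 times the epithelial-like level (9.18 to 10.6).

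**Figure D1:**
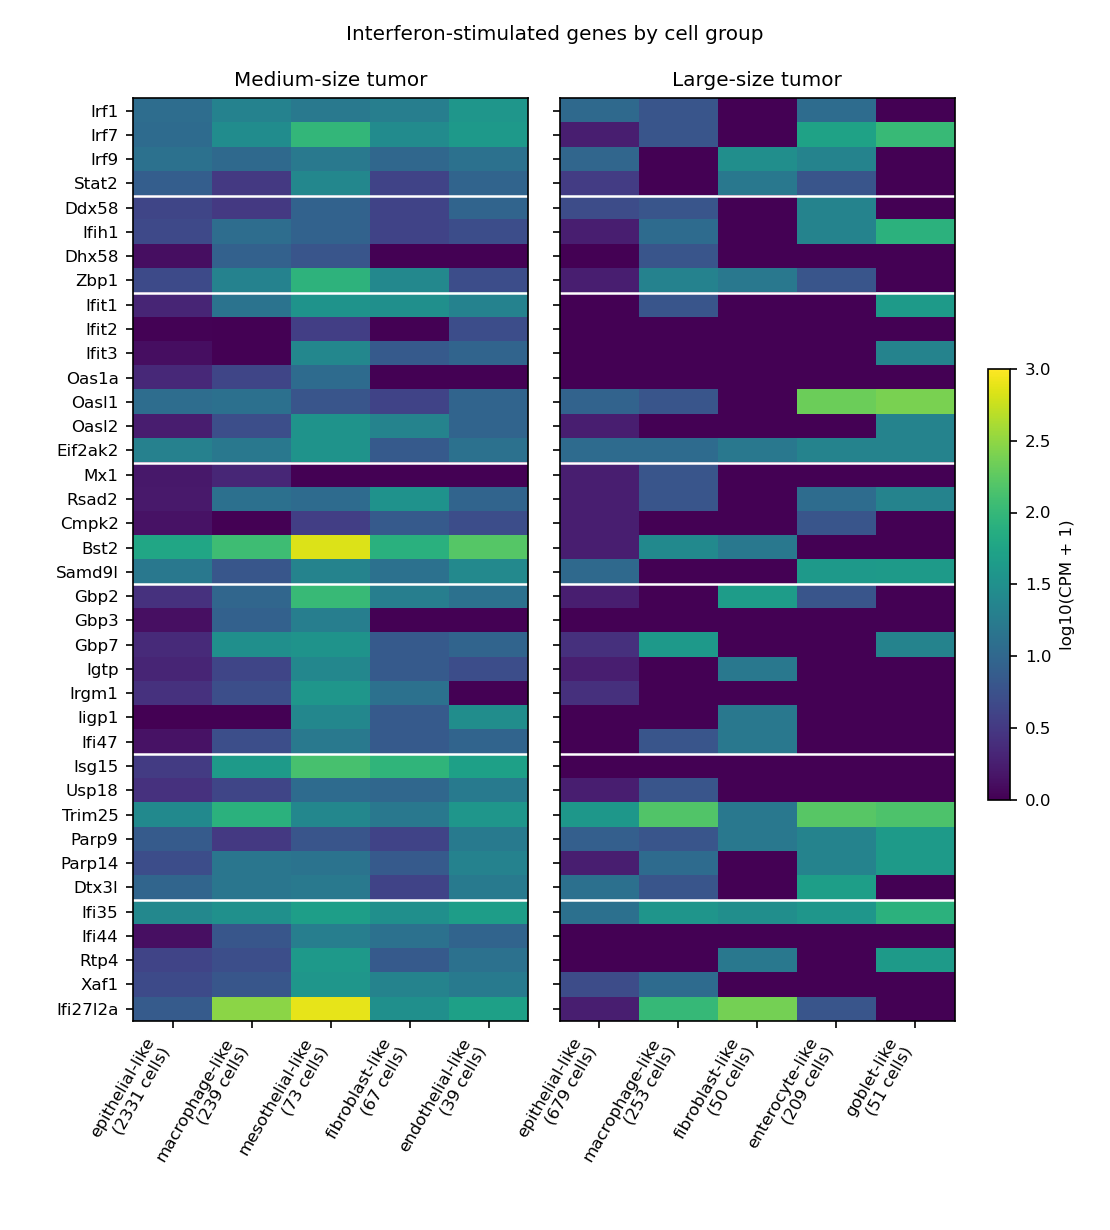
Level of each of the 38 members (rows, grouped by role with white lines between roles) in 5 cell groups of each tumor (columns), as log10 of CPM plus 1; dark cells stand at or near 0. Mesothelial-like cells from the medium-size tumor hold the highest levels of Bst2 (690 CPM) and Ifi27l2a (765 CPM), and Isg15 is at 0 in all groups of the large-size tumor.

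Mesothelial cells line the peritoneum and the surface of the pancreas. The cluster called mesothelial-like had all 6 markers of its list, summed to 2048 CPM against 334 CPM in epithelial-like and 244 CPM in fibroblast-like cells. It also had 4 fibroblast markers, with the whole fibroblast list at 12700 CPM against 14643 CPM in the fibroblast-like cluster, and Dcn, Rarres2, C3, Nkain4 and Upk3b among its 10 leading genes. Its smooth muscle and pericyte markers were at 77.6 CPM against 3458 CPM in the fibroblast-like cluster. Called one cell at a time, 42 of its 73 cells were mesothelial, with members at 3012 CPM (2798 to 3239), and 16 were fibroblast, at 1617 CPM (1303 to 1983). At a clustering resolution of 0.4 or with 20 principal components no cluster took the mesothelial name.

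The mesothelial-like level came from many genes and many cells. Of the 38 members, 34 were above their epithelial-like level. The interval of the ratio lay above 1 for 24 of the 38 and below 1 for none. Shares over all genes are not given for these counts, and some members, such as Iigp1 and Ifit3, have most of their UMIs in the mesothelial-like group. A member was counted when it had at least 50 UMIs over both groups, and called when the ratio with 1 UMI added to each group passed 2-fold. By this rule 14 of 21 counted members were at least 2-fold higher, where 13.5% of 10796 genes were, and 0 were lower, where 13.7% were. The mesothelial-like group is small, so a lower level of a sparse member was hard to detect at this depth. Some members pass the minimum only through the group where they are high. Among the 19 that reach 50 UMIs in epithelial-like cells alone, 12 were at least 2-fold higher, against 12.7% of 10677 genes. The median ratio, with the added UMI, was 3.12 over the 21 members and 0.961 over all genes counted. For 4 of the 14 (Ddx58, Ifih1, Parp14 and Dtx3l, with 3 to 6 mesothelial-like UMIs) the interval of the ratio spans 1.

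Antiviral effectors and GTPases were among the members with the highest ratios. Ifi27l2a, a small mitochondrial membrane protein, had 296 UMIs in 64 of the 73 mesothelial-like cells, 765 CPM (681 to 858). In epithelial-like cells it was at 6.35 CPM (5.25 to 7.63), a ratio of 120 (96.8 to 151). Bst2 (tetherin), which holds budding virus at the cell surface, had 267 UMIs in 67 cells, 690 CPM (610 to 778), against 58.6 CPM (55.2 to 62.3) in epithelial-like cells. These 2 genes made up 30.8% and 27.8% of the mesothelial-like sum, and without both the ratio to epithelial-like cells was 5.49 (4.94 to 6.1). Isg15, the ubiquitin-like modifier, was seen in 30 of 73 mesothelial-like cells (41.1%) and in 35 of 2331 epithelial-like cells (1.5%). Its levels were 134 CPM (100 to 176) and 2.32 CPM (1.67 to 3.14), which gives 57.9 times more (37.8 to 89.2). Gbp2, a guanylate-binding protein, stood at 103 CPM against 1.66 CPM, a ratio of 62.4 (37.9 to 104).

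Other GTPases of immunity had lower counts. Irgm1 had 14 UMIs in mesothelial-like and 30 in epithelial-like cells, a ratio of 21.8 (10.7 to 42.5), and Igtp had 9 and 19, a ratio of 22.2 (8.83 to 51.4). Gbp7 had 13 and 23 UMIs, a ratio of 26.5 (12.3 to 54.4). Iigp1 had 9 UMIs in 8 mesothelial-like cells and 7 UMIs in endothelial-like cells, but 0 in 18096703 UMIs of epithelial-like cells, which allows up to 0.166 CPM. Its mesothelial-like level of 23.3 CPM was 140 times this value, a figure that leaves out counting error. Gbp3 and Ifi47 gave 7 and 6 UMIs in mesothelial-like cells against 6 and 7 in epithelial-like cells. Mx1, a GTPase that blocks viruses, differed from these with 0 UMIs in mesothelial-like and 10 in epithelial-like cells, though the interval of its ratio reaches 20.9.

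Ifit proteins bind foreign RNA, and Oas enzymes that sense double-stranded RNA make a messenger that activates an RNase. Ifit3 had 9 UMIs in mesothelial-like cells against 5 in epithelial-like cells. Its ratio was 84.2 (25.4 to 320). Ifit1 was at 33.6 CPM against 1.05 CPM, a ratio of 32 (14.5 to 68.3), and Oasl2 at 33.6 CPM against 0.718 CPM, a ratio of 46.8 (20 to 110). The Oas family was not uniform, since Oasl1, a relative of Oasl2, was at 5.17 CPM in mesothelial-like and 10.8 CPM in epithelial-like cells, a ratio of 0.48 with an interval that spans 1 (0.0577 to 1.76). Ifit1, Ifit3, the Oas genes and the Gbp genes have close relatives in the mouse genome, so reads of near-identical copies may have been assigned to or withheld from them. Cmpk2, Rsad2, Oas1a and Ifit2 had 1 to 4 UMIs in mesothelial-like cells.

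The transcription factors split. Irf7, the factor that amplifies type I interferon, was at 95.7 CPM (67.4 to 132) in mesothelial-like and 10.2 CPM (8.8 to 11.8) in epithelial-like cells, a ratio of 9.36 (6.39 to 13.4). Stat2 was at 23.3 against 6.85 CPM, a ratio of 3.4 (1.52 to 6.66). Irf9, the DNA-binding partner of Stat2, had a ratio of 1.29 (0.47 to 2.86) and Irf1, a target of interferon gamma, one of 1.43 (0.517 to 3.16), so both were within counting error of equal levels. Zbp1, a sensor of Z-form nucleic acid, was 22.7 times higher (14.5 to 34.9), whereas the RNA sensors Ddx58 and Ifih1, with 3 UMIs each, could not be told from equal levels.

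Apart from Isg15 and Usp18 (4 UMIs against 30, a ratio of 6.24, 1.6 to 17.7), the enzymes of the ubiquitin and ADP-ribose systems had intervals that span 1. Trim25, a ubiquitin ligase that acts on the RNA sensor RIG-I (Ddx58), was at 23.3 CPM in mesothelial-like and 25.6 CPM in epithelial-like cells, a ratio of 0.908 (0.412 to 1.74). Parp9 had a ratio of 0.814 (0.0974 to 3.01) and Samd9l, an antiviral restriction factor, one of 1.41 (0.601 to 2.81). Eif2ak2, the kinase PKR that stops translation on binding double-stranded RNA, had a ratio of 1.71 (0.904 to 2.97). Ifi35 was at 46.5 against 24.3 CPM, a ratio of 1.92 (1.13 to 3.07). Rtp4 and Xaf1 had ratios of 13.1 (7.04 to 23.2) and 9.63 (5 to 17.3). Ifi44 had 7 UMIs against 6, a ratio of 54.6 (15.7 to 197), and Dhx58, a relative of the RNA sensors, 2 against 5.

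**Figure D2:**
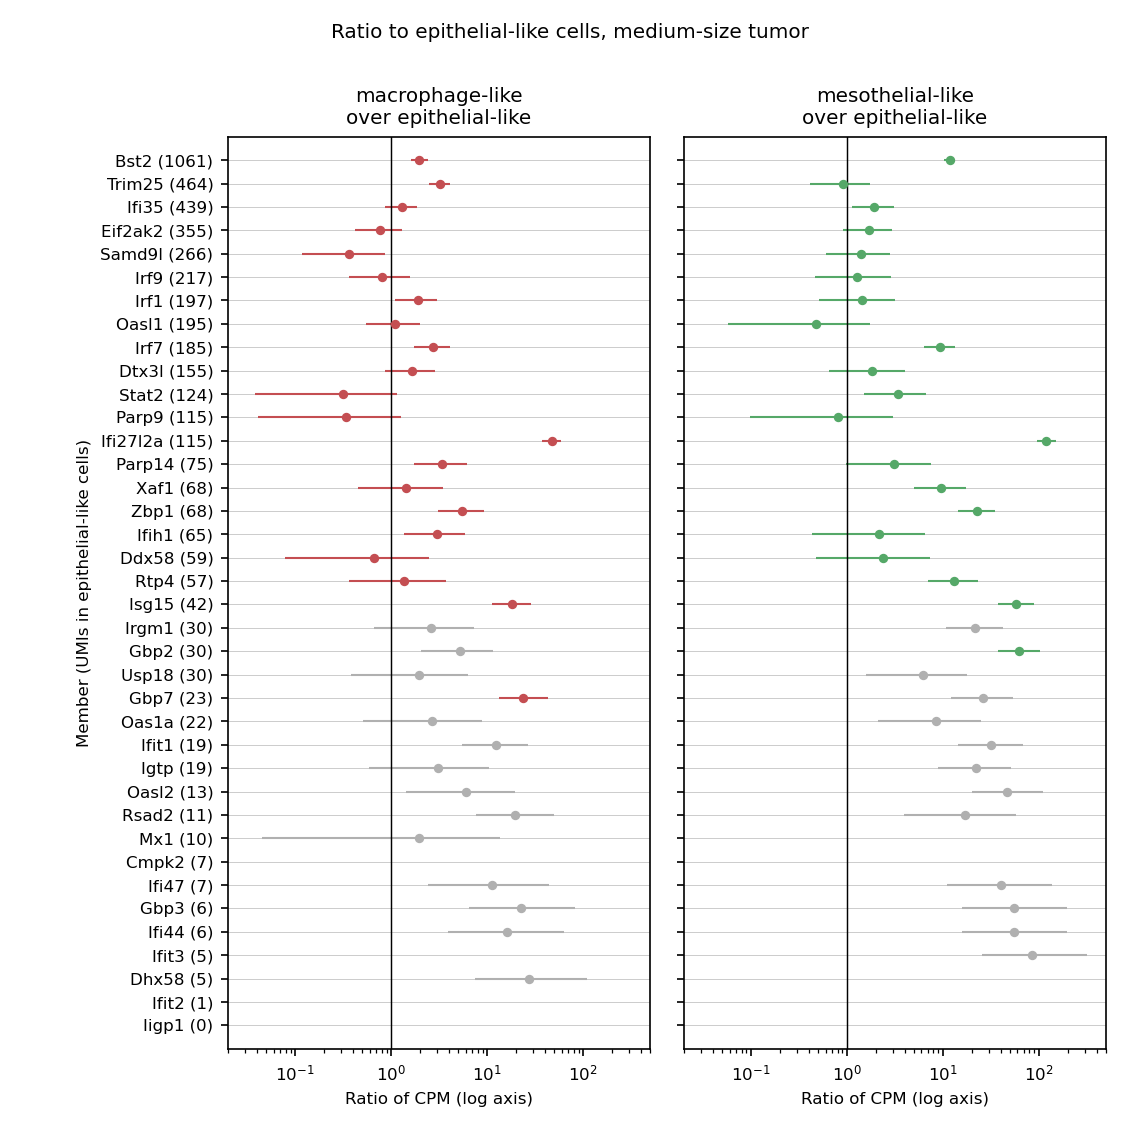
Ratio of CPM (log axis) of macrophage-like (left) and mesothelial-like (right) to epithelial-like cells from the medium-size tumor for each member, with its 95% exact interval, ordered by UMIs in epithelial-like cells (in brackets). Colored points have at least 50 UMIs over both groups and grey points fewer, and members with under 10 UMIs or with 0 in a group are not drawn. Members with few epithelial-like UMIs, such as Isg15 and Gbp7, lie far above 1 in mesothelial-like cells, and among the abundant ones Bst2 (11.8) and Irf7 (9.36) lie well above 1 and Trim25 (0.908) and Eif2ak2 (1.71) near it.

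Spread over single cells set the mesothelial-like cells apart from the other stroma. At least 1 member UMI was found in 72 of 73 mesothelial-like cells (98.6%, 92.6% to 100%), with a median of 11. The median was 2 in macrophage-like, 3 in endothelial-like and 1 in fibroblast-like and epithelial-like cells. After thinning every cell to 2500 UMIs, 98.6% of mesothelial-like, 76.2% of macrophage-like, 61.5% of endothelial-like, 46.3% of fibroblast-like and 43.6% of epithelial-like cells had a member UMI. At least 10 different members were seen in 13 mesothelial-like cells, and at least 5 in 64.4% of them. Leaving out the cell with the most member UMIs moved the ratio to epithelial-like cells from 9.85 to 9.57. Members other than Bst2 and Ifi27l2a were seen in 93.2% of mesothelial-like cells. The shares were 79.5% in endothelial-like, 69.9% in macrophage-like, 65.9% in epithelial-like and 62.7% in fibroblast-like cells.

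**Figure D3:**
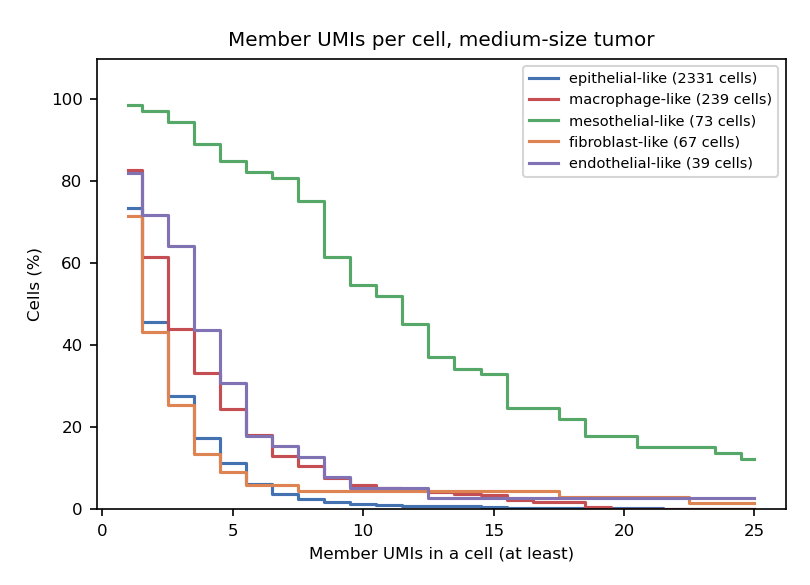
Percent of cells of each group of the medium-size tumor (lines) that hold at least the given number of member UMIs (x axis). The mesothelial-like line stays above the others from 1 to 25 UMIs, and at 25 UMIs the fibroblast-like and endothelial-like lines each rest on 1 cell.

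Endothelial-like cells also had many members above the epithelial-like level. Of 20 counted members 14 were at least 2-fold higher, where 19.7% of 10755 genes were, and 0 were lower, where 6.49% were. For 7 of the 14 the interval of the ratio spans 1. Among the 19 that reach 50 UMIs in epithelial-like cells alone 13 were higher, where 19.1% of 10677 genes were. None was lower, where 6.54% were. In fibroblast-like cells 7 of 20 were higher, where 16.6% of 10796 genes were, and 1 was lower, where 13% were. The interval spans 1 for 2 of the 7. By epithelial-like UMIs alone 6 of 19 were higher, where 15.7% of genes were, and 1 was lower, where 13.1% were. In both groups single cells carried part of the sum. One fibroblast-like cell of 5136 UMIs held 52 member UMIs from 19 members, among them 18 of Isg15 and 8 of Ifit1. It gave 27.8% of the group's 187 member UMIs, and without it the ratio to epithelial-like cells was 1.64 (1.37 to 1.94) in place of 2.23 (1.92 to 2.58). Then 5 of 20 counted members were at least 2-fold higher, where 16.7% of all genes were, and 1 of the 5 had an interval that spans 1. All 11 Rsad2 UMIs of the fibroblast-like group came from a single other cell. Rsad2 encodes viperin, an enzyme that makes a chain-terminating nucleotide. One endothelial-like cell of 3380 UMIs held 47 member UMIs from 22 members, among them 9 of Isg15, 5 of Ifit1 and 4 of Usp18, the enzyme that removes Isg15 from proteins. Without that cell the ratio to epithelial-like cells was 2.13 (1.77 to 2.54) in place of 2.86 (2.45 to 3.33). Then 11 of 19 counted members were at least 2-fold higher, where 19.8% of all genes were, and 6 of the 11 had an interval that spans 1. In the epithelial-like group 7 of 2331 cells (0.3%) showed at least 10 members. The one with the most was a cycling cell of 23780 UMIs with 38 member UMIs, of which 9 were Irf7, 7 Bst2 and 5 Rtp4.

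The members were also divided into alternating parts of the alphabetical list, 19 genes each, and cells thinned to 2500 UMIs were sorted by their UMIs of the first part. In macrophage-like cells the second part was at 352 CPM (285 to 430) in cells without a UMI of the first part, 395 CPM (312 to 493) in those with 1 and 831 CPM (681 to 1003) in those with at least 2. In epithelial-like cells it was at 79.1 CPM (70.7 to 88.4), 74.9 CPM (61.2 to 90.6) and 125 CPM (93.8 to 163), so cells with 1 UMI did not stand above those with none. In mesothelial-like cells the values were 700 CPM (281 to 1442) in 4 cells, 1457 CPM (1085 to 1916) in 14 and 1353 CPM (1165 to 1562) in 55, with intervals that overlap. In fibroblast-like cells they were 88.9 CPM (42.6 to 163), 286 CPM (137 to 525) and 1100 CPM (689 to 1665), but without the 2 cells with at least 10 members the latter was 267 CPM (72.7 to 683). In endothelial-like cells they were 114 CPM (41.9 to 249), 171 CPM (35.4 to 501) and 1055 CPM (706 to 1515), the latter 360 CPM (165 to 683) without the 1 such cell. In both groups the intervals of the lowest and highest class then overlap, but the cells left out were chosen by their members. In the large-size tumor, thinned to 500 UMIs, 7 enterocyte-like and 3 goblet-like cells had 2 or more UMIs of the first part, and at most 2 cells of the epithelial-like, macrophage-like, fibroblast-like and endothelial-like groups did. Genes outside the pathway followed the member sum only weakly over epithelial-like cells, the largest of 2517 Spearman values being 0.0952 for Rtcb, which is no finding in counts this sparse.

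Macrophage-like cells had 3.35 times the epithelial-like sum (3.1 to 3.62) in the medium-size tumor. Of 21 counted members 8 were at least 2-fold higher, where 10.6% of 10900 genes were, and 2 were lower, where 26.9% were. The median ratio of the counted members was 1.76, against 0.762 over all genes. Ifi27l2a made up 35.4% of the macrophage-like sum, at 300 CPM (265 to 337), and was seen in 100 of 239 cells. Without Ifi27l2a and Bst2 the ratio was 2.3 (2.07 to 2.55). Scaling by TMM factors in place of total UMIs raised the count of members at least 2-fold higher from 8 to 13. This scaling shifts all genes of the pair alike, and the share over all genes under it is not given. Among the 19 members that reach 50 UMIs in epithelial-like cells alone 6 were higher, where 8.96% of genes were, and 2 were lower, where 27.5% were. Among the counted members next came Gbp7, with a ratio of 23.8 (13.2 to 43.3), Isg15 with 18.2 (11.4 to 28.8), Zbp1 with 5.47 (3.1 to 9.2), Parp14 with 3.39 (1.73 to 6.16) and Trim25 with 3.2 (2.48 to 4.09). Under the minimum of 50 UMIs, Dhx58 had 7 macrophage-like UMIs against 5, a ratio of 27.4 (7.48 to 109), Gbp3 had 7 against 6, a ratio of 22.8 (6.57 to 82.2), and Rsad2 had 11 against 11, a ratio of 19.6 (7.69 to 49.8). At the other end Stat2 had 2 UMIs in macrophage-like cells and 124 in epithelial-like cells, a ratio of 0.316 (0.0378 to 1.16). Parp9 also had 2 UMIs, a ratio of 0.34 (0.0407 to 1.26), and Ddx58 had 2 UMIs, a ratio of 0.663 (0.0785 to 2.5). Samd9l was the only member whose interval lay below 1, at 5.41 CPM against 14.7 CPM, a ratio of 0.368 (0.118 to 0.869). Eif2ak2 and Irf9 had ratios of 0.772 (0.418 to 1.31) and 0.812 (0.366 to 1.57). The intervals of the macrophage-like clusters overlapped, at 834 CPM (770 to 903) for the one led by Wfdc17 and Chil3 and 891 CPM (760 to 1037) for the one led by Cd74.

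Ifi27l2a and Bst2 led the sum in both macrophage-like and mesothelial-like cells, but the levels of single members differed between these groups. Trim25 was at 82.2 CPM (64.7 to 103) in macrophage-like cells and 23.3 CPM (10.6 to 44.2) in mesothelial-like cells, whereas Bst2 was at 116 CPM (94.8 to 140) and 690 CPM (610 to 778). Gbp2 was at 8.65 CPM (3.73 to 17) in macrophage-like and 103 CPM (73.9 to 141) in mesothelial-like cells. The levels of Gbp7 were 30.3 and 33.6 CPM. Free RNA in the droplets can carry UMIs between groups. The 11 macrophage markers summed to 32600 CPM in macrophage-like cells, 275 CPM in epithelial-like cells and 760 CPM in mesothelial-like cells, and the 11 epithelial markers to 662 CPM in macrophage-like and 2907 CPM in mesothelial-like against 11532 CPM in epithelial-like cells. No T or NK marker had a UMI in mesothelial-like cells. The part of free RNA in the member levels was not tested.

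Short promoter stretches are shown for members that were low in carcinoma cells and high in mesothelial-like cells, and for Bst2 and Stat2, because the response element in promoters is the site through which type I interferon acts. All stretches shown hold a match to the motif searched, whereas Oasl2, Ifi44 and Ifi47, with ratios of mesothelial-like to epithelial-like cells of 46.8, 54.6 and 40.1, have windows without one. RefSeq windows of GRCm38.p6, the mm10 assembly of the count tables, run from 250 bases before to 50 bases after the start of a gene and were given for 29 of the 39 members. The motif GAAANNGAAA, searched on both strands, was in the windows of 15 of these 29 members (51.7%) and in 3.44% of 32851 windows of all genes. The shorter gamma-activated motif TTCNNNGAA, which reads the same on both strands, was in 8 members (27.6%) and in 8.3% of all windows. Capitals mark each match to the longer motif, or to its reverse complement where the letters are T and C, and overlapping matches run together. Sequences are given 5′ to 3′ on the strand of the gene.
Isg15 (chr4:156200850-156200921, minus strand): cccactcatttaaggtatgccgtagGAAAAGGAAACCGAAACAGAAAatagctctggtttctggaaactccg
Ifit1 (chr19:34640760-34640838, plus strand): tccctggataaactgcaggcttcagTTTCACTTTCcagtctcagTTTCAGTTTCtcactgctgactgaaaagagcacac
Ifit3 (chr19:34583348-34583441, plus strand): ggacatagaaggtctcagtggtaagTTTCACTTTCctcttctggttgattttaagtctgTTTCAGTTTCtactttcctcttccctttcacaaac
Gbp2 (chr3:142620579-142620638, plus strand): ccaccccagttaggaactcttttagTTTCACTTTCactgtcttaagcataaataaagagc
Irgm1 (chr11:48871410-48871475, minus strand): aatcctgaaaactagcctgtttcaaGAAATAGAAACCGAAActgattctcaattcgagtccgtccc
Bst2 (chr8:71537562-71537627, minus strand): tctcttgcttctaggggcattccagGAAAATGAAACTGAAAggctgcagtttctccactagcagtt
Stat2 (chr10:128270251-128270310, plus strand): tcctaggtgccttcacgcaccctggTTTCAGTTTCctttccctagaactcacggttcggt

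Relative to the start of the gene the first match began at -78 in Isg15, -104 in Ifit1, -156 in Ifit3, -59 in Gbp2, -30 in Irgm1, -130 in Bst2 and -222 in Stat2. Isg15 held 3 overlapping matches. Among members with at least 20 UMIs in epithelial-like cells alone, the 10 with a match had a median ratio of mesothelial-like to epithelial-like cells of 10.2, the 9 without a match one of 1.43 and the 6 with no window one of 9.67. The macrophage-like medians were closer together, at 2.64, 1.44 and 2.67. With the 20 UMIs taken over both groups, which lets members in through the group where they are high, the mesothelial-like medians were 16.8 for 12 members with a match and 1.62 for 10 without. The median epithelial-like level was 1.66 CPM over the 15 members with a match, 9.38 CPM over the 14 without and 3.15 CPM over the 9 with no window. These values describe letters in a short window, and binding was not measured.

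Among carcinoma cells the members varied over a narrow range, with one low cluster. The epithelial-like clusters of the medium-size tumor ran from 145 CPM (128 to 163) in cluster 8 to 300 CPM (271 to 331) in cluster 7, a ratio of 2.07 (1.77 to 2.42). The other 6 lay between 233 and 293 CPM, and the interval of cluster 7 overlapped those of clusters 1, 4 and 6. At a clustering resolution of 1.2 the ratio of the highest to the lowest cluster was 1.53. Cluster 8, led by Inhba, Bmp2, Piezo2 and Mmp10, had only 3 of 11 epithelial markers and 0.548 times the members of the other epithelial-like cells (0.483 to 0.619). It held the lowest level of 7 of the 19 members that had at least 50 UMIs in epithelial-like cells, and the highest of 0. Oasl1 was at 2.65 CPM there (ratio to the other epithelial-like cells 0.226, 0.0725 to 0.537). Eif2ak2 was at 6.36 CPM (0.3, 0.154 to 0.532) and Samd9l at 6.36 CPM (0.406, 0.207 to 0.721). Trim25 kept a level of 21.7 CPM in cluster 8, with an interval of the ratio that spans 1 (0.589 to 1.15). Cluster 8 had a median of 6519 UMIs per cell against 5980 over epithelial-like cells, and the part of depth in its member level was not tested.

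**Figure D4:**
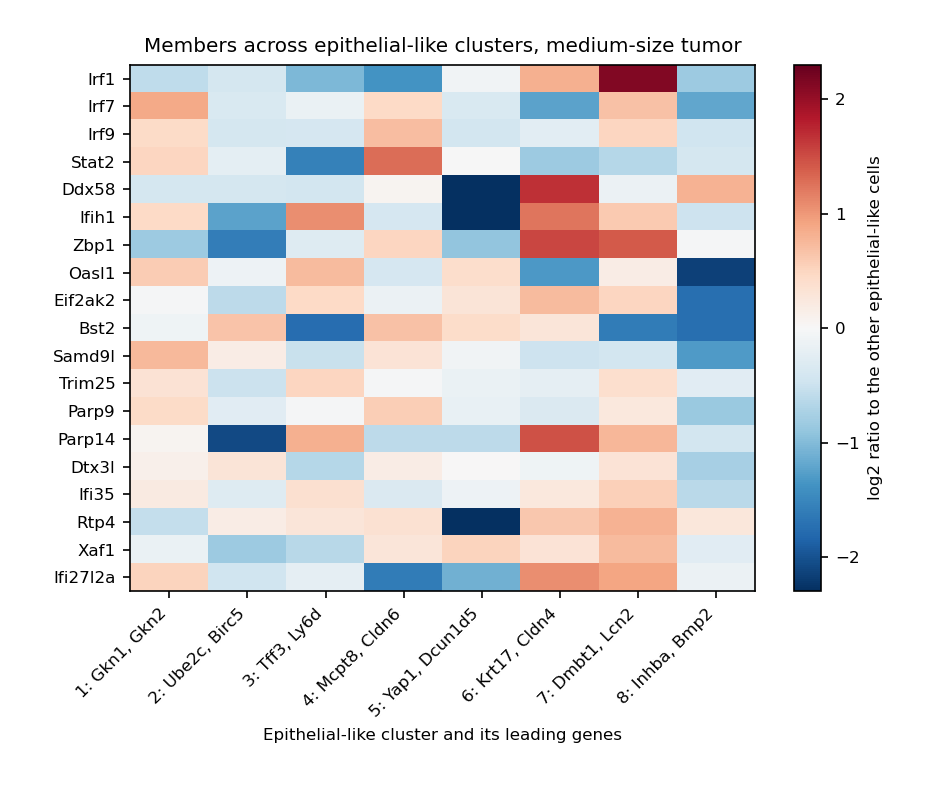
Log2 ratio of each of the 19 members with at least 50 UMIs in epithelial-like cells from the medium-size tumor (rows) in each epithelial-like cluster (columns, with 2 of its leading genes) to the other epithelial-like cells; red is higher and blue lower, and the darkest colors include values beyond the scale. Irf1 stands out in cluster 7 and Bst2 is low in clusters 3, 7 and 8.

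Bst2, the member with the most UMIs, stood at a low level in 3 carcinoma clusters and at a higher one in 5. It was at 88.2 CPM (75 to 103) in cluster 4 (Mcpt8, Cldn6, Hmga2), 83.2 CPM (73.9 to 93.4) in cluster 2 (cycling cells, Ube2c and Top2a), 74.7 CPM in cluster 5 (Yap1, Birc2), 69.5 CPM in cluster 6 (Krt17, Tnc) and 55.5 CPM in cluster 1 (Gkn1, Gkn2). It was at 20.1 CPM (13.2 to 29.2) in cluster 7 (Dmbt1, Sftpd), 19.1 CPM (13.4 to 26.4) in cluster 8 and 18.6 CPM (12.6 to 26.6) in cluster 3 (Tff3, Ly6d). The intervals of these 3 clusters do not reach those of the other 5.

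Cluster 7 had low Bst2 and yet the highest sum of members, with an interval that overlapped those of clusters 1, 4 and 6. Irf1 was at 38 CPM (28.3 to 49.9) there, with 51 UMIs in 42 of 231 cells, 4.36 times the other epithelial-like cells (3.1 to 6.03). In cluster 4, the lowest for Irf1, it was at 4.5 CPM (1.94 to 8.86). Of 54 pathway genes outside the list with at least 50 epithelial-like UMIs, cluster 7 was the highest cluster for 10 and cluster 8, the lowest by member sum, for 10 as well. The genes named next were chosen after their values were seen. The DNA sensor family gene Ifi203 stood at 42.4 CPM, 5.51 times the rest (3.96 to 7.58). Socs3, a feedback inhibitor of cytokine receptors, stood at 256 CPM, 4.36 times the rest (3.85 to 4.94). Psmb8, an immunoproteasome subunit, had a ratio of 2.79 (1.91 to 3.98). In cluster 8 Apol9b was 3.21 times (2.21 to 4.59), Slfn2 2.46 times (1.6 to 3.7) and Cxcl10 2.25 times (1.32 to 3.68) the level of the rest.

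Cluster 6, led by Krt17 and Cldn4, was the highest for the RNA sensors Ddx58, 3.2 times the rest (1.66 to 5.87), and Ifih1, 2.35 times (1.17 to 4.38). It was also the highest for Zbp1, 2.89 times (1.54 to 5.15), and Parp14, 2.76 times (1.5 to 4.8), with 13 to 17 UMIs for each of these 4 genes. Stat2 was highest in cluster 4, 2.43 times the rest (1.51 to 3.78), and Samd9l (1.68 times) and Irf7 (1.82 times) in cluster 1. Oasl1 and Trim25 were highest in cluster 3, at 16.8 and 34.8 CPM. Over the 19 members cluster 6 was the highest for 6, cluster 7 for 5, cluster 4 for 4, and clusters 1 and 3 for 2 each. Cluster 3 has 10 of 11 epithelial markers, but its 10 leading genes hold 1 goblet marker, Tff3, and 0 epithelial markers.

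**Figure D5:**
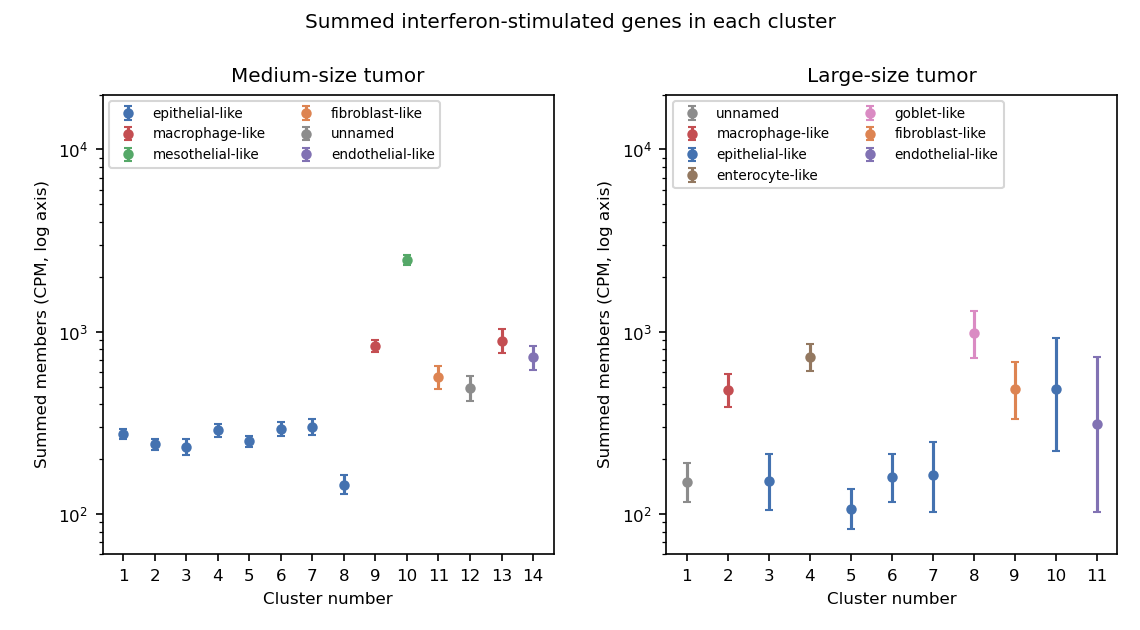
Summed members (CPM, log axis) in every cluster of each tumor, with 95% exact Poisson intervals and one color per cell group. In the medium-size tumor the mesothelial-like cluster is at 2485 CPM and cluster 8 at 145 CPM, and in the large-size tumor the goblet-like cluster is at 978 CPM.

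Other genes of the interferon system were counted by a separate list of 122 genes with a row. Interferons themselves were close to absent. Of 21 ligand genes 18 had 0 UMIs in the medium-size tumor, and the other 3 had 5 UMIs in all, 3 of Ifnz and 1 of Ifnb1 in epithelial-like cells and 1 of Ifnab in the unnamed cluster. In the large-size tumor all 21 had 0. Most receptor chains had UMIs in most groups of the medium-size tumor. Ifnar2, a chain of the type I receptor, was at 142 CPM (107 to 185) in mesothelial-like, 55.1 CPM (41.1 to 72.5) in macrophage-like and 25.6 CPM (23.4 to 28.1) in epithelial-like cells. Ifnar1, the other chain, was at 28.4, 44.3 and 24.5 CPM. Ifngr1, which binds interferon gamma, was lower in mesothelial-like cells, at 23.3 CPM (10.6 to 44.2) against 105 CPM (99.9 to 109) in epithelial-like cells, and its partner Ifngr2 was at 72.4 and 55.6 CPM. Ifnlr1, the type III receptor chain of epithelia, was at 2.43 CPM (1.77 to 3.26) in epithelial-like cells, had 1 UMI each in mesothelial-like and endothelial-like cells, and had 0 in macrophage-like and fibroblast-like cells. Its partner Il10rb was at 27.5 CPM in epithelial-like, 88.7 CPM in macrophage-like and 33.6 CPM in mesothelial-like cells.

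Of 56 counted pathway genes 23 were at least 2-fold higher and 4 lower in mesothelial-like than in epithelial-like cells, beside the 13.5% and 13.7% of all genes. Their median ratio was 1.69. The genes named next for this pair of groups were chosen after their values were seen. Cxcl10, a chemokine for T cells, had a ratio of 13.9 (8.92 to 21.1), Ifitm3, a membrane restriction factor, one of 17.3 (16.3 to 18.4), and Psmb9, an immunoproteasome subunit, one of 29.8 (17.9 to 48.9). In contrast Ifitm2 (ratio 1.69, 1.53 to 1.86) and Ly6e (0.971, 0.877 to 1.07) were near the epithelial-like level. In macrophage-like cells 28 of 60 counted pathway genes were at least 2-fold higher and 6 lower, beside the 10.6% and 26.9% of all genes. Among the 54 that reach 50 UMIs in epithelial-like cells alone 22 were higher and 6 lower in macrophage-like cells, beside 8.96% and 27.5% of all genes with as many. In mesothelial-like cells 21 of the 54 were higher and 4 lower, beside 12.7% and 13.8%. The highest macrophage-like ratios were those of Irf5 (54.3), Sp140 (48.3), Slfn2 (21.1), Psmb9 (20.5) and Psmb8 (19.5), of which Irf5, Sp140 and Psmb9 have under 50 epithelial-like UMIs. The lowest were those of Apol9b (0 UMIs against 158), Ly6a (0.0854), Isg20 (0.133), Pml (0.253) and Lgals3bp (0.353).

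In the large-size tumor 5 clusters with 679 cells were epithelial-like, and there were 253 macrophage-like, 50 fibroblast-like and 11 endothelial-like cells and no mesothelial-like cluster. Called one cell at a time, 15 cells of this library took the mesothelial name, with 7 member UMIs, 504 CPM (203 to 1038). In the medium-size tumor 44 cells took it, at 2938 CPM (2730 to 3158). Such a call needs no minimum of markers, and cells of the large-size library are shallow. The identity of the 15 cells is therefore not shown, and the 2 levels may not be those of like cells. This library also held 209 enterocyte-like and 51 goblet-like cells, and a cluster of 280 cells led by Ggct and Ramp1 that had 2 epithelial markers and stayed unnamed at 150 CPM of members (117 to 190). The epithelial-like level was 138 CPM (118 to 160) from 174 UMIs. Its clusters of at least 30 cells ran from 107 to 164 CPM, a ratio of 1.54 with an interval that spans 1 (0.902 to 2.53), and a cluster of 17 cells led by Upk3a and Sprr2f had 9 member UMIs, 485 CPM (222 to 921). Macrophage-like cells were at 479 CPM (387 to 586), 3.47 times higher (2.67 to 4.48). Fibroblast-like cells were at 484 CPM (333 to 680), with Ifi27l2a giving 48.5% of their 33 UMIs. Without Ifi27l2a and Bst2 the ratio of fibroblast-like to epithelial-like cells was 1.72, with an interval that spans 1 (0.961 to 2.87), in place of 3.5 (2.34 to 5.11). Endothelial-like cells had only 5 member UMIs.

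Intestinal-type cells had the highest member sums of the groups of this library, but not apart from all others. The enterocyte-like interval overlapped that of fibroblast-like cells. Both intestinal-type intervals overlapped those of endothelial-like cells (102 to 730) and of the small cluster led by Upk3a. Goblet-like cells were at 978 CPM (719 to 1300) and enterocyte-like cells at 727 CPM (611 to 858), 7.08 (5.01 to 9.82) and 5.26 times (4.18 to 6.61) the epithelial-like cells of the same library. One goblet-like cell held 23.4% of that group's 47 UMIs, and without it the ratio was 5.53 (3.75 to 7.96). Only Oasl1 and Trim25 had 50 UMIs over enterocyte-like and epithelial-like cells, and both were at least 2-fold higher, where 16% of 3512 genes were. Neither reaches 50 UMIs in epithelial-like cells alone, so this count is no support. Oasl1 had 41 UMIs in enterocyte-like and 12 in goblet-like cells against 10 in epithelial-like cells, 213, 250 and 7.94 CPM. The enterocyte-like ratio was 26.8 (13.2 to 60). Trim25 was at 166, 146 and 37.3 CPM. Irf7 had 10 UMIs in enterocyte-like and 5 in goblet-like cells against 1 in epithelial-like cells, with a ratio of 65.4 (9.3 to 2837) for the enterocyte-like cells. Bst2 and Isg15 had 0 UMIs in both, and Ifi27l2a had 1 UMI in enterocyte-like and 0 in goblet-like cells. Goblet-like cells also held enterocyte markers at 14273 CPM, against 31645 CPM in enterocyte-like and 643 CPM in epithelial-like cells. Low Bst2 and Isg15 were not particular to these cells, since Isg15 had 0 UMIs in every group of this library and Bst2 had 1 UMI in its epithelial-like cells.

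In macrophage-like cells from the large-size tumor the counts were low, and Isg15 had 0 UMIs. Ifi27l2a had 20 UMIs there against 1 in epithelial-like cells, 102 and 0.794 CPM. Trim25 had 30 UMIs, 153 CPM against 37.3 CPM, a ratio of 4.1 (2.5 to 6.61), and was the 1 member with enough UMIs to be counted, where 11.1% of 3475 genes were at least 2-fold higher. It reaches 50 UMIs only with its macrophage-like UMIs, so this count is no support. Gbp7 had 8 UMIs against 2, a ratio of 25.7 (5.12 to 248). The granulocyte markers summed to 8625 CPM in these cells against 200 CPM in macrophage-like cells from the medium-size tumor, and their part in the member levels was not tested.

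Between the tumors the comparison rests on 1 library each, so tumor size, animal and library cannot be told apart. Epithelial-like cells of the large-size tumor were set against those of 7 medium-size clusters, with cluster 3 left out because its leading genes hold more goblet than epithelial markers. The members were at 138 CPM against 254 CPM, a ratio of 0.544 (0.464 to 0.633). Of 19 counted members 8 were at least 2-fold lower, where 19.2% of 10614 genes were, and 0 were higher, where 6.3% were. For 3 of the 8 (Ifih1, Zbp1 and Parp14, with 1 UMI each in the large-size tumor) the interval of the ratio spans 1. Bst2 differed most, with 1 UMI (0.794 CPM) against 1031 UMIs (62.5 CPM), a ratio of 0.0127 (0.000321 to 0.0709). Irf7 had 1 UMI against 170, a ratio of 0.077 (0.00194 to 0.435), and Ifi27l2a 1 against 106, a ratio of 0.124 (0.0031 to 0.703). Trim25 ran the other way, at 37.3 CPM against 24.7 CPM, a ratio of 1.51 (1.09 to 2.04). Dtx3l (1.35), Parp9 (1.12), Ddx58 (1.19), Xaf1 (1.02) and Irf1 (0.836) had intervals that span 1. Without Bst2 and Ifi27l2a the ratio was 0.737 (0.629 to 0.86). In macrophage-like cells the ratio was 0.567 (0.453 to 0.703), where Bst2 was at 25.5 CPM against 116 CPM and Ifi27l2a at 102 CPM against 300 CPM, while Trim25 was at 153 CPM against 82.2 CPM. Without Bst2 and Ifi27l2a the macrophage-like ratio was 0.817, with an interval that spans 1 (0.624 to 1.06). Of 55 counted pathway genes outside the list, 15 were at least 2-fold lower in large-size epithelial-like cells and 4 higher. Over all genes these shares were 19.2% and 6.3%. Among the 28 of them that are induced genes 14 were lower and 1 was higher, a class chosen after its values were seen. Cxcl10, named above for its mesothelial-like level, ran against the member sum, at 44.5 CPM against 5.88 CPM, a ratio of 7.56 (5.34 to 10.6). Isg15 had 0 UMIs in large-size macrophage-like cells, which allows up to 15.3 CPM, against 42.2 CPM.

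Clusters with like leading genes could also be set side by side. The clusters led by gastrokines (Gkn1, Gkn2) had members at 159 CPM in the large-size and 276 CPM in the medium-size tumor, a ratio of 0.574 (0.416 to 0.774), or 0.746 without Bst2 and Ifi27l2a, with an interval that spans 1 (0.54 to 1.01). The cycling clusters had 107 and 241 CPM, a ratio of 0.444 (0.339 to 0.573), or 0.69 (0.523 to 0.897) without them. Bst2 had 0 UMIs in both large-size clusters. The libraries also differed across all genes by the base composition of the transcript end. By the last 500 bases of the transcript, genes were put in 3 classes of like size by GC content. Ratios are those of large-size to medium-size epithelial-like cells. Of 8 counted members in the highest class, 6 were at least 2-fold lower (Bst2, Irf7, Stat2, Rtp4, Zbp1 and Ifi27l2a), against 36.1% of all genes there, of 9 in the middle class 1 was (Parp14), against 14.1%, and of 2 in the lowest class 1 was (Ifih1), against 7.02%. The members' medians in the highest, middle and lowest classes were 0.331, 1.21 and 0.579, against 0.624, 0.938 and 1.15 over all genes. The part of GC content and of depth in the difference between the tumors was not tested.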

How the data were processed

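Single-cell libraries (10x Genomics Chromium 3′, v2 chemistry) of 2 dissociated tumors from KPC mice were used, 1 of medium and 1 of large size, with the 4 technical replicates of each pooled. The authors deposited UMI counts per gene and barcode, made with Cell Ranger on mm10 per the submitters' processing notes (version not given in the sources used here). Each molecule gives a tag at its 3′ end, so levels are not divided by length, and mitochondrial rows hold 0 counts. All barcodes were kept, and 5 occur in both tables. Scrublet (scanpy 1.11.5) called 0 and 9 doublets, which were kept.

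Cells were clustered in Seurat 5.3.0 (R 4.3.3; 2000 variable genes, 10 principal components, resolution 0.8) without 162 rows of interferon genes (161 symbols, 1 of them with 2 rows). A marker was detected in a cluster when seen in at least 10% of its cells and at 25% or more of its highest cluster's level. A cluster took the list with the largest share of its own markers detected (at least 3). Where that list was epithelial or intestinal, 60% of an intestinal list gave the intestinal name and less gave the epithelial one. A cluster that also had 60% of a further list stayed unnamed, except between epithelial and intestinal lists. UMIs were summed by group and scaled to 1000000 (Python 3.11.15, numpy 2.4.6, scipy 1.17.1). With 1 library per tumor no test was run. Intervals are exact at 95%, and a floor is 3 counts. A gene was counted with at least 50 UMIs over both groups and called past 2-fold with 1 UMI added to each. The calculation was tested on simulated data. TMM factors came from edgeR 4.0.16. Named members were the 6 with the most UMIs in each tumor, the 6 highest and lowest ratios of macrophage-like to epithelial-like cells, and the 6 with the largest ratio of the highest epithelial-like cluster. Others, the mesothelial-like comparison included, were chosen after their values were seen. Pathway genes named were the ligands, the receptors and the 5 highest and lowest ratios. Members and lists were chosen with earlier results of these data known. Promoter windows came from RefSeq. An allele of the genotype and a pathway gene are not reported here.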

Additional observations from a re-analysis of the deposited data

How the results depend on the processing

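No paired analysis was possible because the technical replicates of each tumor are pooled in 1 table, and for the same reason no replicate could be left out. Of 71 values under other settings 55 stayed close to the reported one (a ratio within its 95% interval, a count within 1.5 times), 16 moved and 0 changed direction. The ratio of macrophage-like to epithelial-like cells from the medium-size tumor (3.35) was 3.01 at resolution 0.4, 2.8 with cells called one by one, 4.14 with TMM factors and 3.77 without Bst2. The mesothelial-like ratio (9.85), whose alternatives were chosen after seeing the data, was 11.3 with cells called one by one and 10.6 without the highest 5% of Scrublet scores. It has no value at resolution 0.4 or with 20 principal components, where no cluster took that name. The ratio of large-size to medium-size epithelial-like cells (0.544) was 0.687 with thinned cells, 0.717 without Bst2, and 0.548 with the cluster led by Tff3, which was added later. The highest over the lowest epithelial-like cluster (2.07) was 1.53 at resolution 1.2. With a minimum of 20 UMIs, and so more genes counted, 15 members in place of 8 were at least 2-fold higher in macrophage-like cells from the medium-size tumor and 3 in place of 1 in the large-size tumor, and 21 in place of 14 in mesothelial-like cells. With a minimum of 100 UMIs, and so fewer genes, these counts were 3 and 0, and the mesothelial-like one 7 in place of 14. The count of members lower in the large-size tumor was then 4 in place of 8. For these minimums the number of members counted and the share over all genes are not given. A lower minimum also lets in more members through the group where they are high. TMM factors, which shift all genes of the pair alike, gave 13 in place of 8 for the medium-size macrophage-like cells. The share over all genes under TMM is not given either. Values and counts without single cells, without Bst2 and Ifi27l2a together, and by epithelial-like UMIs alone were also chosen after seeing the data. Apart from the count minimum, the causes were not tested. The large-size library has a median of 1037 UMIs per cell, and 36 of its 38 members had under 50 UMIs, so single members were mostly not comparable there.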
